A study of Macaca mulatta with 24 samples.

Results

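The goblet cell mucus genes were followed through the ileum of rhesus macaques after total-body irradiation, in 24 arrays of 7 groups. The list held 9 genes: MUC2, TFF3, CLCA1, SPDEF, AGR2, FCGBP, ZG16, SPINK4 and MUC13. Members were the probes that carried one of these symbols in the deposited normalized table, which gave 10 of 43603 probes for 6 of the 9 genes. TFF3 and FCGBP had no probe under their own symbols. Each had 1 probe under a provisional locus name whose gene number belongs to them in the RefSeq table of assembly T2T-MMU8v2.0, so their values are given beside the members and are not counted among them. No probe was matched to SPDEF, which was not analysed here.

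All animals were young-adult males that received either a sham exposure or 1 uniform dose of cobalt-60 gamma rays. The unirradiated controls (n = 4, labelled day 4) served both doses. Irradiated animals had received 6.7 Gy or 7.4 Gy and were sampled on day 4 (n = 4 per dose), day 7 (n = 4 per dose) or day 12 (n = 2 per dose). Each array held the RNA of 1 animal, taken from the whole gut wall, so epithelium, lamina propria and muscle contributed together. In such tissue fewer goblet cells and less RNA per goblet cell cannot be told apart.

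Goblet cells are the mucus-secreting cells of the intestinal lining, renewed continuously from the crypts. Their main product is MUC2, a gel-forming mucin that is folded in the endoplasmic reticulum, decorated with O-linked glycans in the Golgi and packed into granules. TFF3, CLCA1, FCGBP and ZG16 are secreted with it into the mucus layer, AGR2 is a disulfide isomerase that mucin folding depends on, and SPDEF is a transcription factor of goblet cell maturation. MUC13 is a membrane mucin of the cell surface that absorptive cells carry as well.

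Of the 5 member genes tested, 2 (AGR2 and CLCA1) were called lower on day 4 at both doses, by 2.11-fold to 3.05-fold, where 0.382% of all tested probes were called lower at 6.7 Gy and 0.734% at 7.4 Gy. With slide as a block AGR2 at 7.4 Gy alone stayed called, and with array position as a covariate neither gene was. The transcript of the mucin itself, MUC2, was not called on any day, nor were ZG16 and MUC13. No member was called on day 7 or day 12, and none between the doses. Among listed genes of O-glycan synthesis, the enzymes FUT2 and GCNT1 were called lower on day 4 at both doses. The sulphate transporter SLC26A2 was called lower on day 4 at 7.4 Gy. The GCNT1 calls held in fewer alternative settings than those of FUT2, and with array position as a covariate none of the 3 was called. The cell types that carried these changes in the whole gut wall were not tested. All 3 were called higher on day 7 than on day 4, a contrast in which day and array position cannot be told apart.

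Levels are log2 signals minus the 75th percentile of the same array, so that 0 is that percentile, and they cannot be compared between probes. A change was called at an adjusted p under 0.05 (limma, Benjamini-Hochberg over all 36110 tested probes) together with a fold change of at least 2. Tested probes were those whose spots exceeded background in all animals of 1 group or more, and a gene with several tested probes was taken by its brightest. Of the 10 member probes 9 were tested, for 5 genes, and these 9 were well above background on all 24 arrays, so none entered through 1 group alone. The remaining probe, for SPINK4, was not.

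The arrays carried 72.7% to 88.1% of probes well above background, with a 75th percentile between 837 and 1330 intensity units. The ileal markers FABP6, the ileal bile acid binding protein, and SLC10A2, the ileal bile acid transporter, were above background on all 24 arrays. FABP2, on the list of enterocyte markers, was above background on 10 of 24. A few libraries stood apart. Control replicate 1 had a mean log2 signal of 2.16 over 6 smooth muscle markers, against 4.55 to 4.65 in the other controls. Control replicate 4 had the lowest enterocyte markers of its group (2.65, others 3.39 to 3.84) and the highest B and plasma cell markers (0.02, others -2.21 to -1.49). The 6.7 Gy day 4 replicate 4 had the lowest enterocyte markers of all arrays (1.78) and the highest stem and cell cycle markers (0.87).

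**Figure D1:**
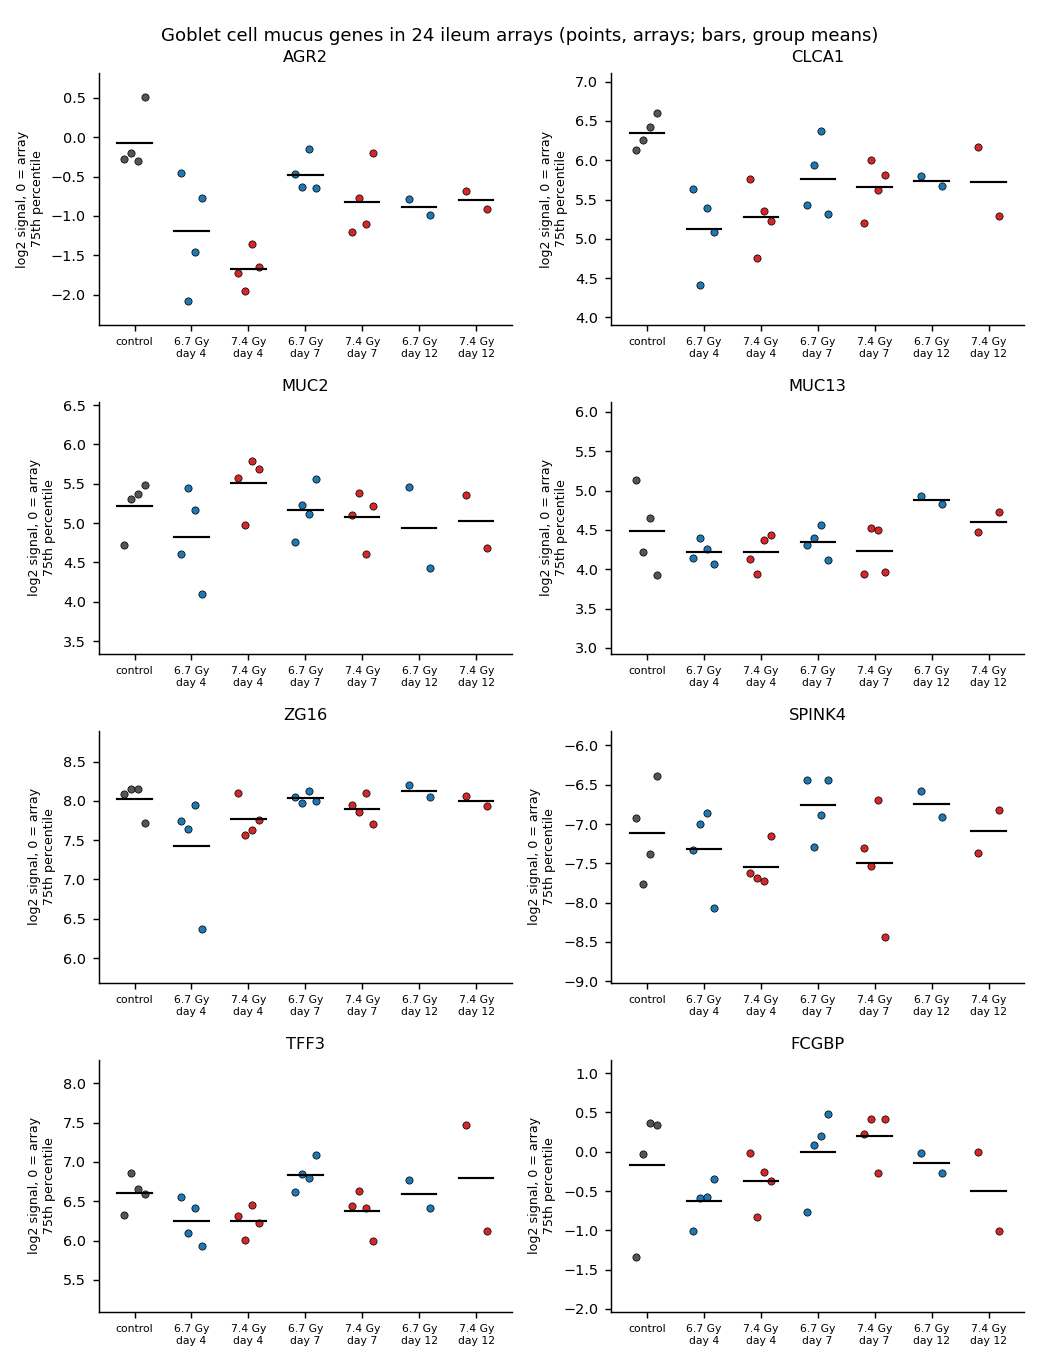
Log2 signal (vertical axis, 0 = 75th percentile of the array) of the 6 member genes with a probe, and of TFF3 and FCGBP, by their brightest probe. Each point is 1 array, grey for controls, blue for 6.7 Gy and red for 7.4 Gy, and bars are group means; every panel spans at least 3.2 log2 units, and the control arrays of AGR2 and CLCA1 lie above all day 4 arrays.

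AGR2, the folding factor, gave the largest decrease of the members at 7.4 Gy. Its log2 signals were -0.27, -0.21, -0.30 and 0.51 in the 4 controls. On day 4 they were -0.46, -2.08, -1.46 and -0.77 after 6.7 Gy and -1.73, -1.96, -1.35 and -1.65 after 7.4 Gy. Every day 4 array lay below every control array at both doses, and the 7.4 Gy group was the tighter of the day 4 groups. On day 7 the signals were -0.47, -0.64, -0.15 and -0.64 after 6.7 Gy and -1.20, -0.77, -1.10 and -0.20 after 7.4 Gy. These ranges overlapped the controls. On day 12 they were -0.79 and -0.99 after 6.7 Gy and -0.68 and -0.91 after 7.4 Gy, all 4 below the controls.

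The AGR2 change on day 4 was -1.12 ± 0.28 on the log2 scale (SE) at 6.7 Gy, a 2.18-fold decrease with an adjusted p of 0.041. At 7.4 Gy it was -1.61 ± 0.28, a 3.05-fold decrease (95% CI 2.02-fold to 4.60-fold) with an adjusted p of 0.0032. On day 7 the differences from control were -0.41 and -0.75 (adjusted p = 0.73 and 0.25), and on day 12 they were -0.82 and -0.73 (adjusted p = 0.50 and 0.61). By group mean the order ran from control (-0.07 ± 0.38, SD) through 6.7 Gy day 7 (-0.48 ± 0.23), 7.4 Gy day 12 (-0.79 ± 0.16), 7.4 Gy day 7 (-0.82 ± 0.45), 6.7 Gy day 12 (-0.89 ± 0.14) and 6.7 Gy day 4 (-1.19 ± 0.72) to 7.4 Gy day 4 (-1.67 ± 0.25). Neighbours in this order overlapped, apart from 6.7 Gy day 7 and 7.4 Gy day 12. Averaged over the doses, AGR2 was 0.79 ± 0.20 higher on day 7 than on day 4 (adjusted p = 0.015), a 1.72-fold difference that stayed under the fold limit. Over 29 alternatives this difference ran from 0.41 to 0.91, with adjusted p from 0.0044 to 0.12.

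CLCA1 is a secreted metalloprotease of the mucus that acts on MUC2. Its log2 signals were 6.12, 6.25, 6.42 and 6.60 in the controls. On day 4 they were 5.64, 4.41, 5.39 and 5.08 after 6.7 Gy and 5.76, 4.76, 5.35 and 5.23 after 7.4 Gy. All 8 day 4 arrays lay below all 4 controls. On day 7 the signals were 5.43, 5.94, 6.37 and 5.32 after 6.7 Gy and 5.20, 6.0, 5.62 and 5.82 after 7.4 Gy, and only the latter group lay wholly below the controls. On day 12 they were 5.80 and 5.67 after 6.7 Gy and 6.16 and 5.29 after 7.4 Gy.

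The CLCA1 change on day 4 was -1.22 ± 0.28 at 6.7 Gy, a 2.33-fold decrease with an adjusted p of 0.027. At 7.4 Gy it was -1.08 ± 0.28, a 2.11-fold decrease with an adjusted p of 0.028. Later differences from control were smaller, -0.58 and -0.69 on day 7 (adjusted p = 0.53 and 0.29) and -0.61 and -0.62 on day 12 (adjusted p = 0.62 and 0.70). The second CLCA1 probe differed by -0.98 and -0.97 on day 4 (adjusted p = 0.050 and 0.031), just under the fold limit, and the probes correlated with r = 0.81 over the 24 arrays. Group means ran from 6.35 ± 0.21 (SD) in control to 5.27 ± 0.41 at 7.4 Gy and 5.13 ± 0.53 at 6.7 Gy on day 4, with the day 7 and day 12 groups between 5.66 and 5.77. No pair of neighbours in this order was separated.

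Thus 2 of 5 tested members were called lower on day 4 at each dose, and 0.978% and 2.33% of all tested probes were called in either direction. The median log2 change of the 5 genes was -0.60 at 6.7 Gy and -0.26 at 7.4 Gy, beside -0.10 and -0.07 over all tested probes. Groups that did not overlap, with the irradiated arrays lower, were seen for the same 2 genes at each dose, and for 7.71% and 7.91% of all tested probes.

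**Figure D2:**
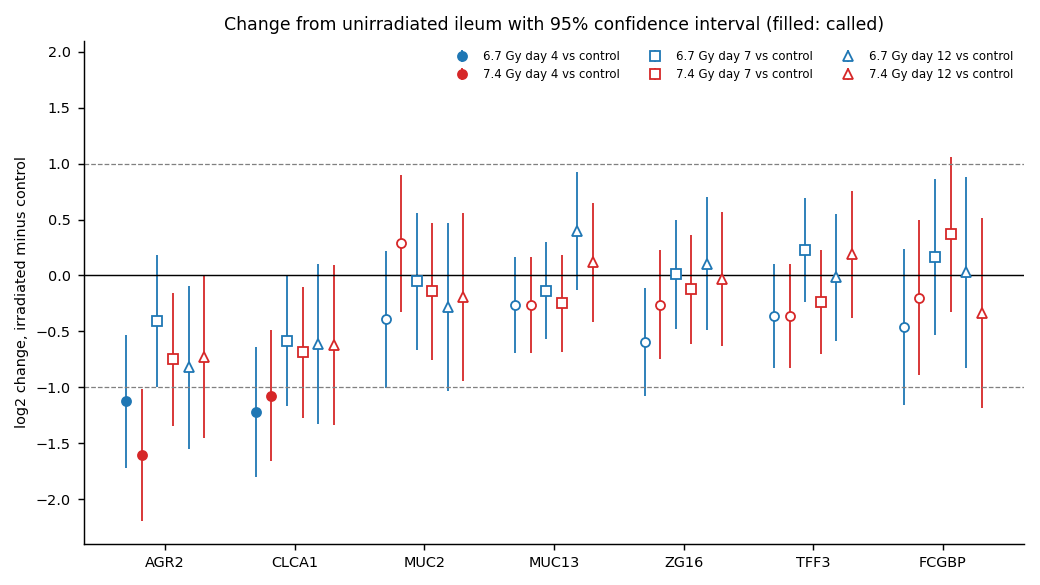
Log2 change from control (vertical axis) with 95% confidence intervals from the limma fit, for the 5 tested members and for TFF3 and FCGBP. Blue is 6.7 Gy, red 7.4 Gy, circles day 4, squares day 7 and triangles day 12, filled symbols were called and dashed lines mark a 2-fold change; AGR2 and CLCA1 on day 4 are filled, and no interval on day 7 or 12 belongs to a called change.

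Slides and array positions were not balanced. Each of the 6 slides held 4 arrays, and all controls lay at position 1. All controls were scanned on scan day 1, whereas each day 4 group was split over scan days 1 and 2. Day 4 arrays shared a slide with a control in 2 pairs per dose. In these pairs AGR2 differed by -1.18 and -0.56 at 6.7 Gy and by -1.43 and -2.47 at 7.4 Gy, and CLCA1 by -0.74 and -1.17 at 6.7 Gy and by -0.66 and -1.84 at 7.4 Gy, irradiated minus control. With slide as a block AGR2 stayed called at 7.4 Gy (-1.59, adjusted p = 0.017), whereas AGR2 at 6.7 Gy (-1.09, adjusted p = 0.092) and CLCA1 at both doses (-1.13, adjusted p = 0.074, and -1.05, adjusted p = 0.059) were not. With scan day as a block (chosen after seeing the data) 0 members were called on day 4 at 6.7 Gy and 1 at 7.4 Gy. The 2 arrays of 6.7 Gy day 4 that lay at position 1 differed from the controls by -1.20 for AGR2 and -1.32 for CLCA1. With position as a covariate neither gene was called, AGR2 having changes of -1.20 and -1.76 (adjusted p = 0.13 and 0.11) and CLCA1 of -1.32 and -1.29 (adjusted p = 0.096 and 0.22). For days 7 and 12 position and irradiation cannot be told apart. All day 4 arrays lay at positions 1 and 2 and all later arrays at positions 3 and 4, so in day 7 or day 12 against day 4 position and day cannot be told apart either.

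Leaving out 1 array at a time, the AGR2 change at 6.7 Gy ranged from -1.37 to -0.83 and fell short of the call without any 1 control, without day 4 replicate 2 (-0.83, adjusted p = 0.086) or without day 4 replicate 3 (-1.04, adjusted p = 0.074). At 7.4 Gy it ranged from -1.71 to -1.42 and stayed called each time. Control replicate 4, the highest AGR2 array, left -1.42 at 7.4 Gy (adjusted p = 0.010) and -0.93 at 6.7 Gy (adjusted p = 0.090) when omitted. Without control replicate 1, AGR2 was -1.19 and -1.68 (adjusted p = 0.068 and 0.0081) and CLCA1 -1.29 and -1.15 (adjusted p = 0.046 and 0.050). CLCA1 at 6.7 Gy ranged from -1.39 to -0.98 and was called in 4 of 8 fits, not without control replicate 3 or 4 (adjusted p = 0.065 and 0.058) or day 4 replicate 2 or 4 (adjusted p = 0.064 and 0.060). At 7.4 Gy it ranged from -1.24 to -0.90 and was called in 2 of 8 fits, those without control replicate 2 (adjusted p = 0.045) or day 4 replicate 1 (adjusted p = 0.034), the others having adjusted p of 0.050 to 0.070. Without 6.7 Gy day 4 replicate 4, AGR2 was -1.27 (adjusted p = 0.045) at that dose.

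Some epithelial markers were also called lower on day 4, 2 of 11 tested at 6.7 Gy and 1 at 7.4 Gy. Of the 11, 9 were below control at 6.7 Gy and 10 at 7.4 Gy, with medians of -0.56 and -0.58 (-0.39 and -0.47 without control replicate 1). VIL1, which bundles actin in the brush border, was called at both doses (-1.32 and -1.27, adjusted p = 0.0011 and 0.00085). KRT20, a keratin of differentiated epithelium, was called at 6.7 Gy (-1.05, adjusted p = 0.015), and not without control replicate 1 (-0.85, adjusted p = 0.050). The mean log2 signal of this list ranged from 4.21 to 4.79 in controls, from 3.73 to 4.34 at 6.7 Gy and from 3.72 to 4.09 at 7.4 Gy on day 4, overlapping the controls at 6.7 Gy, and its defining member EPCAM was above background on all arrays. Over 11 tested enterocyte markers the ranges were 2.65 to 3.84, 1.78 to 4.03 and 2.81 to 3.63, with 0 called and 1 and 0 at an unadjusted p under 0.05. The medians were -0.48 and -0.22, and without control replicate 4 they were -0.70 and -0.48 with 0 called and 4 and 1 at an unadjusted p under 0.05. Without control replicate 1 they were -0.24 and -0.03. For the 6 smooth muscle markers the medians on day 4 were 0.41 and 0.75 with 0 called (0 and 4 at an unadjusted p under 0.05). Without control replicate 1 they were -0.13 and 0.22, with 1 and 5 of 6 markers above control and 1 and 0 at an unadjusted p under 0.05. The sign at 6.7 Gy thus rested on that array, and at 7.4 Gy the difference of list means fell from 0.81 to 0.20 without it. The mean of the 6 smooth muscle markers ranged from 2.16 to 4.65 in controls, from 4.06 to 4.94 at 6.7 Gy and from 4.58 to 5.16 at 7.4 Gy. The part of these list values in the AGR2 and CLCA1 decreases was not tested. When each array was scaled to the epithelial markers, AGR2 was called at 7.4 Gy (-1.11, adjusted p = 0.013) and not at 6.7 Gy (-0.67, adjusted p = 0.10), and CLCA1 differed by -0.77 and -0.58 (adjusted p = 0.064 and 0.12).

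**Figure D3:**
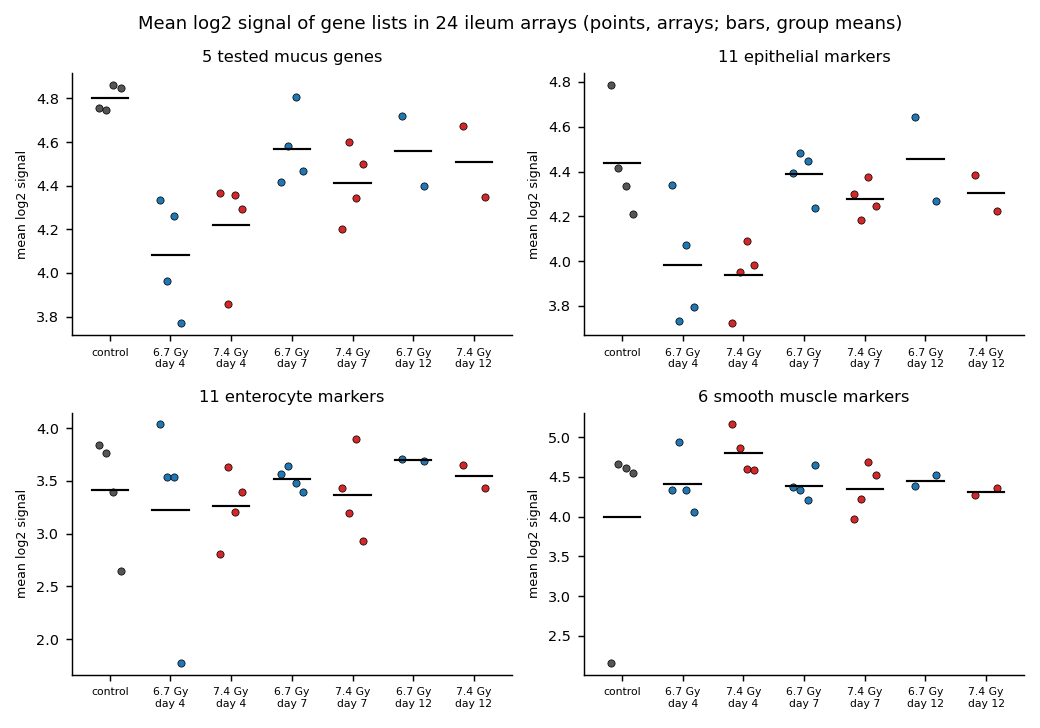
Mean log2 signal (vertical axis) of the 5 tested mucus genes, 11 epithelial, 11 enterocyte and 6 smooth muscle markers in each array, with bars at group means. The mucus genes ranged from 4.74 to 4.86 in controls and from 3.77 to 4.37 in the day 4 arrays, the epithelial markers also had their lowest arrays on day 4, and control replicate 1 stands alone at 2.16 in the smooth muscle panel.

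MUC2, the gel-forming mucin, had log2 signals of 4.72, 5.31, 5.37 and 5.48 in the controls. The day 4 signals were 4.60, 5.44, 5.17 and 4.09 after 6.7 Gy and 5.57, 4.98, 5.79 and 5.69 after 7.4 Gy. Both groups overlapped the controls. The difference from control was -0.39 (95% CI -1.01 to 0.22) at 6.7 Gy and 0.29 (95% CI -0.33 to 0.90) at 7.4 Gy. On days 7 and 12 the differences lay between -0.28 and -0.05. The second MUC2 probe differed by -0.47 at 6.7 Gy (adjusted p = 0.11) and by -0.16 at 7.4 Gy, the opposite sign to the first at that dose. The MUC2 probes correlated with r = 0.24 over 24 arrays, against 0.81 to 0.97 for the probe pairs of CLCA1, MUC13 and ZG16.

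ZG16, a lectin-like protein that binds bacteria in the mucus, had log2 signals of 8.09, 8.15, 8.15 and 7.72 in the controls. The day 4 signals were 7.75, 7.65, 7.95 and 6.37 after 6.7 Gy and 8.11, 7.56, 7.63 and 7.76 after 7.4 Gy. The lowest value belonged to 6.7 Gy replicate 4, the array with the lowest enterocyte markers. The change at 6.7 Gy was -0.60 ± 0.23 (adjusted p = 0.14) and became -0.24 without that array, and at 7.4 Gy it was -0.26 ± 0.23. On days 7 and 12 ZG16 differed from control by -0.12 to 0.10, and its second probe followed it closely (r = 0.97).

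MUC13, the membrane mucin, had log2 signals of 5.13, 4.22, 4.66 and 3.92 in the controls, the widest control range of the tested members by their brightest probes. Its day 4 signals were 4.14, 4.40, 4.26 and 4.07 after 6.7 Gy and 4.13, 3.94, 4.37 and 4.44 after 7.4 Gy, inside that range. Differences from control were -0.27 and -0.26 on day 4, -0.14 and -0.25 on day 7 and 0.40 and 0.12 on day 12, with adjusted p of 0.44 or more in each. On day 12 the signals were 4.93 and 4.82 after 6.7 Gy and 4.47 and 4.73 after 7.4 Gy, all above the 8 day 4 arrays. The day 12 to day 4 difference, averaged over doses, was 0.52 ± 0.18 with an adjusted p of 0.050, above the threshold before rounding and under the fold limit. In that contrast 5.04% of all tested probes had all day 12 arrays higher.

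SPINK4, a goblet cell protease inhibitor of the Kazal type, was well above background on 6 of 24 arrays. These were 1 control, 1 array of 6.7 Gy day 4, 2 of 6.7 Gy day 7, 1 of 7.4 Gy day 7 and 1 of 7.4 Gy day 12. Its highest intensity was 14.2 units, in control replicate 4, and no change is given for it.

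TFF3, the trefoil peptide of intestinal mucus, had log2 signals of 6.32, 6.86, 6.65 and 6.60 in the controls. The day 4 arrays gave 6.56, 6.10, 6.42 and 5.93 after 6.7 Gy and 6.31, 6.0, 6.46 and 6.22 after 7.4 Gy, overlapping the controls. The change was -0.36 ± 0.22 at both doses (adjusted p = 0.33 and 0.34). FCGBP, a mucus protein that binds covalently to the mucin network, differed by -0.46 ± 0.33 and -0.20 ± 0.33 on day 4 (adjusted p = 0.40 and 0.76), and its controls ran from -1.34 to 0.36. Neither gene was called in any of the 12 comparisons.

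The mean of the epithelial markers differed from control by -0.45 at 6.7 Gy and -0.50 at 7.4 Gy on day 4 (-0.33 and -0.38 without control replicate 1). Scaling to it with all arrays takes -0.45 and -0.50 off the change of every gene. MUC2 then differed from control by 0.06 and 0.79 on day 4, MUC13 by 0.19 and 0.24, ZG16 by -0.14 and 0.24, TFF3 by 0.09 and 0.14 and FCGBP by -0.01 and 0.30, with adjusted p of 0.079 or more. Decreases smaller than the amount taken off turn in sign by construction.

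On day 7, 0 of 5 members were called at either dose, with 1 member (CLCA1) at 6.7 Gy and 2 members (AGR2 and CLCA1) at 7.4 Gy at an unadjusted p under 0.05 in limma. Over all tested probes 0.235% and 0.568% were called. The member medians were -0.14 and -0.25, beside -0.00 and -0.03 over all probes. CLCA1 at 7.4 Gy was the member whose groups did not overlap, where 4.25% of all probes were likewise lower.

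On day 12, with 2 arrays per dose, 0 of 5 members were called by limma, where 0.108% and 0.0443% of all probes were. The 7.4 Gy arrays shared no slide and no scan day with a control. AGR2 was the 1 member with an unadjusted p under 0.05 in limma at each dose. AGR2 and CLCA1 at 6.7 Gy, and AGR2 at 7.4 Gy, lay wholly below the controls, as did 7.56% and 9.38% of all probes at these doses. The member medians were -0.28 and -0.20. The 95% intervals for AGR2 ran from -1.55 to -0.10 and from -1.45 to -0.00, so a 2-fold decrease was within both.

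The doses were compared directly on each day. No member was called on day 4, 7 or 12 by limma, where 0%, 0% and 0.00277% of all probes were called. On day 12 the arrays of the doses shared no slide and no scan day, so dose was not compared within a slide or scan day. MUC2 on day 4 was the one member with an unadjusted p under 0.05 in limma, 0.68 higher after 7.4 Gy (95% CI 0.07 to 1.29, adjusted p = 0.88). For AGR2 on day 4 the difference, 7.4 Gy minus 6.7 Gy, was -0.48 with a 95% interval of -1.08 to 0.11, and CLCA1 differed by 0.14 (-0.44 to 0.73). Differences of up to about 2-fold between the doses lay within these intervals for AGR2. On day 7 the differences of all 5 members were negative, between -0.34 and -0.09.

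Between days, with doses averaged, 0 of 5 members were called. In day 7 against day 4, AGR2, CLCA1 and ZG16 had an unadjusted p under 0.05, and AGR2 alone an adjusted p under 0.05, as had 13.2% of all tested probes (1.06% were called). CLCA1 was 0.51 ± 0.20 higher on day 7 (adjusted p = 0.090) and ZG16 0.37 ± 0.16 higher (adjusted p = 0.14). In day 12 against day 4 the 4 genes AGR2, CLCA1, MUC13 and ZG16 had an unadjusted p under 0.05, with differences of 0.47 to 0.59, while MUC2 differed by -0.18 (2.76% of probes were called). In day 12 against day 7 MUC13 was 0.45 higher (unadjusted p = 0.021, adjusted p = 0.26), and 0.114% of probes were called.

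The members did not vary as 1 unit. Of 10 pairs among the 5 tested genes, AGR2 and CLCA1 had the highest Pearson correlation over the 24 arrays (r = 0.80, adjusted p = 0.0003; Spearman's rho 0.75, adjusted p = 0.0007; permutation tests, 100000 resamples, Benjamini-Hochberg over the 10 pairs). It was 0.69 without the 2 arrays farthest from the AGR2 median, 0.64 on deviations from group means and 0.81 on deviations from slide means. The permutations ran over all 24 arrays regardless of group, so the p-values of all pairs also take in group differences. No p-value was computed for the deviations. The other pairs had r from -0.13 to 0.45. CLCA1 and ZG16 came next (r = 0.45, adjusted p = 0.11; rho 0.58, adjusted p = 0.016), and MUC13 and ZG16 had r = 0.43 (adjusted p = 0.11; rho 0.54, adjusted p = 0.024). On deviations from group means these were r = 0.17 and r = 0.29. MUC2 had r between -0.13 and 0.35 with the other members, and none of its 4 pairs had an adjusted p under 0.05. The other genes whose signal ran most like the mean standardized signal of the 5 members, among 20390 candidate probes with a symbol, were MAMDC4 (r = 0.81), DRAP1 (0.78), CLCA2 (0.78), LOC100425276 (0.77) and KRT20 (0.77), given as a description over 24 arrays. CLCA2, a paralog of CLCA1, was well above background on all 4 controls, on 1 of 4 arrays at 6.7 Gy and on 0 of 4 at 7.4 Gy on day 4.

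Mucin is heavily glycosylated, by enzymes that act on it in the Golgi. Of 25 tested genes that start, extend, sulphate or cap mucin O-glycans, 20 were lower than control at 6.7 Gy and 22 at 7.4 Gy on day 4. The medians were -0.26 and -0.23, beside -0.10 and -0.07 over all tested probes. Of the 25, 2 and 3 genes were called lower and 0 higher, where 0.382% and 0.734% of all tested probes were called lower. FUT2, the secretor fucosyltransferase that caps mucin glycans, had log2 signals of -1.18, -1.54, -1.31 and -1.34 in the controls. The day 4 arrays gave -2.88, -3.28, -3.09 and -3.70 after 6.7 Gy and -4.49, -2.61, -2.73 and -3.91 after 7.4 Gy. There was a gap of over 1 log2 unit between the lowest control and the highest irradiated array. The changes were -1.89 ± 0.32 and -2.09 ± 0.32 (adjusted p = 0.0035 and 0.00085), and with slide as a block -1.96 and -2.27 (adjusted p = 0.015 and 0.0030). FUT2 was 2.09 higher on day 7 than on day 4 (adjusted p = 3e-05), when its signals lay between -1.76 and -0.72 over both doses. Day and position are confounded in that contrast.

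SLC26A2, a sulphate transporter that supplies mucin sulphation, had log2 signals of -1.06, -1.77, -2.01 and -2.38 in the controls. Day 4 signals were -2.92, -3.39, -3.24 and -4.35 after 6.7 Gy and -5.40, -4.19, -3.67 and -3.74 after 7.4 Gy. All day 4 arrays were below all controls. The change at 7.4 Gy was -2.44 ± 0.46 (adjusted p = 0.0049), and at 6.7 Gy it was -1.67 ± 0.46 (adjusted p = 0.056), which passed with slide as a block (-2.13, adjusted p = 0.019). GCNT1, which forms the core branch of O-glycans, changed by -1.20 ± 0.32 and -1.16 ± 0.32 (adjusted p = 0.047 and 0.034), and was not called with slide as a block (-1.19 and -0.88, adjusted p = 0.080 and 0.12). With normexp background correction the changes were smaller for all 3 genes, -1.43 and -1.51 for FUT2 and -1.60 for SLC26A2 at 7.4 Gy, all called, and -0.59 and -0.63 for GCNT1, under the fold limit. GCNT1 was called in 7 of 23 and 12 of 23 alternatives, against 21 of 23 at each dose for FUT2. With the arrays scaled to epithelial markers FUT2 (-1.44 and -1.59, adjusted p = 0.0095 and 0.0032) and SLC26A2 at 7.4 Gy (-1.94, adjusted p = 0.0057) were called, and GCNT1 was not (-0.75 and -0.66, adjusted p = 0.052 and 0.063). With position as a covariate none of these 3 genes was called, the FUT2 values being -1.74 and -1.78 (adjusted p = 0.050 and 0.14). GCNT1 was 1.16 higher and SLC26A2 1.87 higher on day 7 than on day 4 (adjusted p = 0.0026 and 0.0013), and 0.65 and 1.23 higher with normexp, where GCNT1 fell under the fold limit. On day 12 against day 4 FUT2 was 2.26 higher and SLC26A2 1.68 higher (adjusted p = 9.1e-05 and 0.0087), the latter 1.1 higher with normexp. No gene of the list was called against control on day 7 or day 12, with 0 and 4 genes at an unadjusted p under 0.05 in limma on day 7 and 2 and 3 on day 12.

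**Figure D4:**
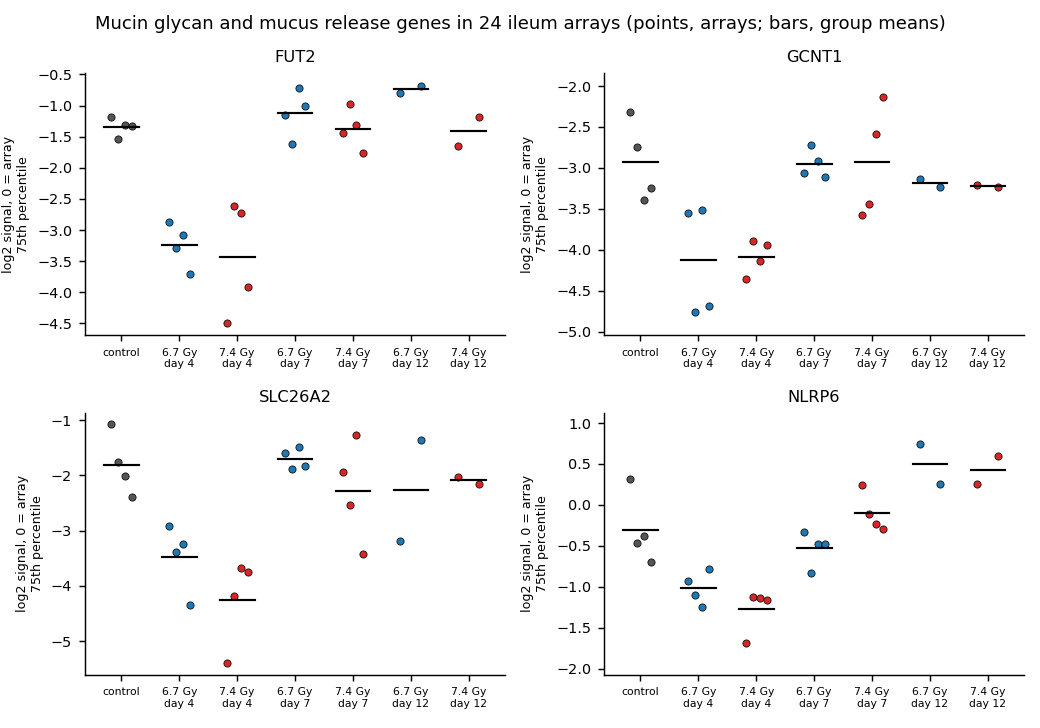
Log2 signal (vertical axis, 0 = 75th percentile of the array) of FUT2, GCNT1, SLC26A2 and NLRP6, 1 point per array with bars at group means, grey for controls, blue for 6.7 Gy and red for 7.4 Gy. FUT2 has all control arrays at or above -1.54 and all day 4 arrays at or below -2.61, and the day 7 and day 12 arrays lie near the controls.

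Mucus release and hydration depend on chaperones, granule fusion proteins and ion channels. None of 21 tested genes of this kind was called on day 4 by limma, with 5 and 9 genes at an unadjusted p under 0.05. At any fold change 2.61% and 6.65% of all probes had an adjusted p under 0.05. SYTL4, a granule docking protein, had an adjusted p under 0.05 at both doses with small changes of -0.59 and -0.46 (adjusted p = 0.0053 and 0.014), which became -0.14 and 0.04 with epithelial scaling. KCNN4, a potassium channel that drives secretion, was 0.94 and 0.87 higher (adjusted p = 0.013 and 0.011), and 1.40 and 1.37 higher with epithelial scaling (adjusted p = 0.0085 and 0.0048). NLRP6, an inflammasome sensor linked to goblet cell secretion, differed by -0.97 at 7.4 Gy (adjusted p = 0.0086; -0.47 with epithelial scaling, adjusted p = 0.072), and was called on day 12 against day 4 at 1.61 ± 0.17 higher (adjusted p = 3.3e-05). A further 2 genes were called in that contrast, the chloride and bicarbonate exchanger SLC26A3 (1.55, adjusted p = 0.011, and called on day 7 against day 4 at 1.46, adjusted p = 0.0051) and the bicarbonate channel BEST2 (3.78 ± 0.92, adjusted p = 0.010). BEST2 varied widely within groups, with day 4 signals from -7.20 to -1.36 and day 12 signals from -0.95 to 0.41. It was well above background on 7 of the 8 day 4 arrays, and the lowest value, of 6.7 Gy replicate 4, is only a bound. Without that array the difference was 3.39 (adjusted p = 0.016), and with normexp it was 2.69 (adjusted p = 0.0055).

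Of 16 tested factors of the secretory lineage none was called on day 4 by limma, with 7 genes at an unadjusted p under 0.05 at each dose. Of these, 3 had an adjusted p under 0.05 at 7.4 Gy, the factors CREB3L4 (-0.74) and CDX2 (-0.56) and the Notch ligand DLL4 (-0.76). With epithelial scaling these were -0.24, -0.06 and -0.26 (adjusted p = 0.42, 0.81 and 0.36). ATOH1, the factor that commits cells to the secretory lineage, had signals of -2.68 to -2.44 in controls and -3.16 to -2.41 over the 8 day 4 arrays, with overlapping ranges. Of 14 other goblet cell genes none was called on day 4 (5 and 4 at an unadjusted p under 0.05). FFAR4, a fatty acid receptor, was called lower at 7.4 Gy on day 7 (-1.37 ± 0.32, adjusted p = 0.042), a call that held in 7 of 22 alternative settings. DMBT1, a scavenger receptor secreted into mucus, and PIGR, the receptor that carries antibodies across the epithelium, were called higher on day 7 than on day 4 (1.67 and 1.14, adjusted p = 0.018 and 0.032). The PIGR call held in 21 of 28 alternatives and was lost with epithelial scaling (0.77, adjusted p = 0.12). The day 4 array of 6.7 Gy replicate 4 had the highest DMBT1 signal of all 24 (4.39). Of 6 other tested mucins none was called against control, with medians of -0.13 at both doses on day 4 and 3 and 1 genes at an unadjusted p under 0.05.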

How the data were processed

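Total RNA of whole ileum was labelled with 1 dye and hybridized to 24 Agilent rhesus arrays, 1 animal each. Per the file headers, the authors read the scans with Feature Extraction 11.0.1.1, which gave processed intensity values per spot. The authors' normalized table holds log2 values scaled to the 75th percentile, and 100% of its values were within 0.01 of the centred values computed here.

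From the scanner files the log2 processed intensity was averaged over spots of a probe, spots marked as outliers were left out where another remained, and the 75th percentile over probes that are not controls was subtracted per array. Group means of the 7 groups were fitted together with limma 3.58.1 in R 4.3.3 over 36110 probes, with Benjamini-Hochberg adjustment in each of 12 comparisons. That step was tested on simulated data. Gene symbols came from the deposited table. Of 43603 probes, 23674 had a symbol there, 3184 were renamed by gene number and 121 named by accession. The number of arrays, 2 to 4 per group, limits the precision. Replicates are separate animals. Slide as a block, array position as a covariate, scan day as a block (chosen after seeing the data), a replicate block, normexp, quantile normalization, the authors' table, the mean of a gene's probes, scaling to epithelial markers, no filter on dim probes, only the groups compared, the methods' t-test and leaving out each array were tried as alternatives.

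Members and gene lists were chosen with earlier results of these data known. All members are named, with changes of at least 0.5 or an adjusted p under 0.05 in full and the others as ranges. Genes of other lists are named where called, at most 6 per list and comparison, and those most like the members are the 5 with the highest Pearson r. ATOH1, SYTL4, KCNN4, CREB3L4, CDX2, DLL4 and EPCAM fall outside this rule and were chosen after their values were seen. The normexp alternative (offset 50) used the median signal and background, since no mean signal column was used here. The labels' treatment text names a last day that differs from the day 12 of titles and day field, and day 12 was used. Replicate numbers are not said to pair animals.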

Additional observations from a re-analysis of the deposited data

Results flagged for a closer look

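Of the probes of the members, TFF3 and FCGBP, 3 had 1 array far from the rest of its group, among 60 probe and group combinations with 4 arrays. Chance flags about 1 in 20 such groups. AGR2 in control replicate 4 was 0.51, with the other controls between -0.30 and -0.21. ZG16 in the same array was the lowest control at 7.72, with the others between 8.09 and 8.15. That array also had the lowest enterocyte and highest B and plasma cell markers of the controls, and its part in these values was not tested. The second MUC13 probe was 0.76 in 6.7 Gy day 7 replicate 3, with the others between 0.06 and 0.11. AGR2 differed between days, being 0.79 higher on day 7 than on day 4 with doses averaged (limma, adjusted p = 0.015), and the groups overlapped. Over the alternatives this difference ran from 0.41 to 0.91, with adjusted p from 0.0044 to 0.12.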

How the results depend on the processing

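The 2 members called on day 4 at 6.7 Gy became 1 with no filter on dim probes and 0 when arrays were scaled to epithelial markers, with slide as a block, with array position as a covariate, with scan day as a block (chosen after seeing the data), with only the groups compared and by the methods' t-test after Benjamini-Hochberg adjustment; the cause was not tested. At 7.4 Gy the 2 became 1 under quantile normalization, epithelial scaling, slide as a block, scan day as a block and the adjusted t-test, and 0 with position. Leaving out 1 array gave 0 to 2 at 6.7 Gy and 1 to 2 at 7.4 Gy. AGR2 at 7.4 Gy was called in 23 of 24 alternatives, AGR2 at 6.7 Gy in 11, CLCA1 at 6.7 Gy in 14 and CLCA1 at 7.4 Gy in 12. The member median changed to -0.14 at 6.7 Gy and 0.24 at 7.4 Gy on day 4 with epithelial scaling. Leaving out 1 array it ran from -0.77 to -0.24 at 6.7 Gy on day 4 and from -0.68 to 0.18 at 6.7 Gy on day 12, where without replicate 1 or 2 the remaining array was assumed to vary like the other groups. The member median thus turned in sign at 7.4 Gy on day 4 (main -0.26) and at 6.7 Gy on day 12 (main -0.28). With epithelial scaling the day 4 change of MUC13 turned in sign at both doses, MUC2 at 6.7 Gy and ZG16 at 7.4 Gy, as did TFF3 at both doses and FCGBP at 7.4 Gy. AGR2, CLCA1, FUT2, GCNT1 and SLC26A2 kept their sign in every alternative run for the comparisons in which they were called. No member was called in the other 10 comparisons under any alternative run. Position could not be fitted for days 7 and 12 against control or against day 4.

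Over all tested probes on day 4 the calls at 6.7 and 7.4 Gy were 353 and 842 in the main setting, 217 and 491 with normexp, 1861 and 3252 with epithelial scaling, 199 and 144 with position, 49 and 418 with only the groups compared, and 0 and 125 by the adjusted t-test (663 and 1083 unadjusted).

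Whether replicate numbers pair the animals is not stated. Deviations from group means had a median correlation of 0.03 over 62 pairs of arrays with the same number and -0.011 over 182 pairs with different numbers. Of these, 16 and 30 pairs had r above 0.1, with highest values of 0.365 and 0.27, which does not exclude pairing. With a replicate block 2 members were called at each dose on day 4, as without it, and 357 and 845 probes.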

Other observations

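Marker lists of other cell types of the gut wall, compared with control on day 4 in the same fit, gave the following values. Of 10 tested stem cell and cell cycle genes 2 were called higher at both doses, ASCL2, a factor of crypt base stem cells (1.40 and 1.69, adjusted p = 0.00049 and 4e-05), and TYMS, an enzyme of thymidylate synthesis (1.52 and 1.44, adjusted p = 0.00043 and 0.00051). Of 8 B and plasma cell genes, all 8 were below control at 7.4 Gy and 7 at 6.7 Gy, with medians of -1.62 at 6.7 Gy and -1.38 at 7.4 Gy. The B cell receptor component CD79B was called at both doses (-1.29 and -1.25, adjusted p = 0.025 and 0.016), and CD79A at 6.7 Gy (-1.80, adjusted p = 0.047). On day 7 at 7.4 Gy CD79A (-2.37), CD79B (-1.34) and the plasma cell receptor TNFRSF17 (-2.97) were called (adjusted p = 0.015, 0.026 and 0.012). CD79A in that group and at 6.7 Gy on day 4, and TNFRSF17 in that group, were well above background on 3 of 4 arrays. These values rest in part on control replicate 4. Without it the medians on day 4 were -1.06 and -0.92, the list means differed by -0.94 and -0.96 in place of -1.43 and -1.45, and none of the 8 genes was called by limma on day 4 or on day 7 at 7.4 Gy, with 4, 4 and 5 at an unadjusted p under 0.05. Among 9 enteroendocrine genes CHGB, a protein of hormone granules, was called higher at 7.4 Gy (1.26, adjusted p = 0.0043). Among 7 myeloid genes CD14, a receptor for bacterial lipopolysaccharide, was called higher at 7.4 Gy (1.14, adjusted p = 0.011). None of 4 Paneth, 6 tuft or 9 T cell genes, or of 7 genes of type 2 cytokine signals, was called by limma on day 4, with 0, 0, 6 and 1 genes at an unadjusted p under 0.05 at 6.7 Gy and 0, 0, 1 and 0 at 7.4 Gy.

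Against day 4, where day and array position cannot be told apart, VIL1 with doses averaged was called higher on day 7 than on day 4 (2.14-fold, adjusted p = 8.4e-05), and so was PYY, a hormone of enteroendocrine cells (log2 difference 1.11, adjusted p = 0.029). On day 12 against day 4 PYY (1.35, adjusted p = 0.025) and MEP1A, a brush border protease (1.13, adjusted p = 0.030), were called higher and TYMS lower (-1.12, adjusted p = 0.00072).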
